A study of Mus musculus with 6 samples.

Results

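The assays described here measure miR-23a, miR-23b, miR-24, miR-27a and miR-27b, the mature miRNAs of a pair of paralogous gene clusters, in the classical and non-classical monocytes of mice. They were chosen by name, as the mouse assays for these miRNAs without the # that marks opposite strands, and are 5 of the 750 miRNA assays of the screen. Monocytes were freshly isolated from 3 DBA/1 mice, an inbred strain, and both subsets were taken from each mouse, which makes 6 samples, 3 of Ly6Chigh and 3 of Ly6Clow monocytes. No treatment separates the subsets, and the age and sex of the mice and the purity of the isolated cells are not given in the sources used here. The comparison addresses which miRNAs differ between inflammatory Ly6Chigh monocytes and patrolling Ly6Clow monocytes.

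Each cluster is transcribed as 1 primary RNA from which 3 hairpins are cut, in the order miR-23, miR-27, miR-24. A mature miRNA binds its target RNAs mainly through its seed, bases 2 to 8, so that miRNAs with the same seed can act on overlapping sets of targets. The miR-23a cluster is known for favouring the myeloid over the lymphoid fate of blood progenitors, and miR-27 is known as a regulator of lipid and inflammatory genes in macrophages. In the RefSeq annotation of GRCm38.p6, Mir23a, Mir27a and Mir24-2 lie on chromosome 8 within 404 bases, with 79 and 56 bases between neighbours. Mir23b, Mir27b and Mir24-1 lie on chromosome 13 within 792 bases, with 154 and 423 bases between neighbours, and this stretch overlaps Aopep, a protein-coding gene. The annotation lists 1 more miRNA gene inside each stretch, Mir3074-2 and Mir3074-1.

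The RefSeq table held the mature sequence of 4 of the 5 miRNAs. They are shown 5′ to 3′ with the seed in capitals, because the seeds group the miRNAs and a single base separates the miR-27 paralogs. miR-23b is given by name only. The assay names state no strand, and assays without # were taken to read the 3p strands. All 4 lie on the plus strand, and the coordinates are those of GRCm38.p6, since the deposited tables name no build.
miR-23a-3p, chr8:84208563-84208583: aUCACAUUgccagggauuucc
miR-27a-3p, chr8:84208727-84208747: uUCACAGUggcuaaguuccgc
miR-27b-3p, chr13:63300760-63300780: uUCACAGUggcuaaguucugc
miR-24-3p, chr8:84208875-84208896 and chr13:63301251-63301272: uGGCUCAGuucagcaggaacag
miR-27a and miR-27b share their seed and 20 of 21 bases, and they differ by C19U, counted from 1 at the 5′ end of miR-27a. No other mature miRNA among the 1679 names of the table carries this seed. The mature miR-24 is the same from both loci, so that its assay reads both clusters together. Its seed is also listed for miR-5124b, miR-6369, miR-6410 and miR-6413. Since each miR-27 paralog was read by 1 assay, how far that assay also amplified the other paralog is not visible in the values.

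The values are threshold cycles (Ct) of TaqMan low-density arrays, in which each well holds 1 assay and the Ct is the PCR cycle at which its signal rises above a set level. A Ct lower by 1 cycle means 1 log2 unit more template, and reactions without signal are listed at 40. All 5 assays were on the first of 2 cards, called card A here. On this card, the share of miRNA reactions with any signal (a Ct below 40) whose Ct fell within 0.1 cycles of a whole number was 98.4% to 100% per sample, and differences between samples therefore come in whole steps of roughly 1 cycle. Expression is given relative to the small nuclear RNA U6 of the same card, as −ΔCt on the log2 scale. The 4 U6 wells of card A are listed with a single value per sample, which hides the spread between wells. U6 on this card came up at a Ct of 22.66, 24.66 and 20.77 in the Ly6Chigh samples of mice 1, 2 and 3. In the Ly6Clow samples it came up at 19.80, 20.76 and 21.92, so that values relative to U6 also carry these shifts. The p-values rest on 3 mice, each of which gave both subsets, and the tests do not use this pairing unless stated. Less miRNA per cell cannot be told apart from fewer cells that contain it.

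The Ly6Chigh sample of mouse 1 stood apart on card A. Over the 127 tested card A assays, the Spearman correlation between its Ct values and those of each other sample was 0.10 to 0.15, whereas the remaining 5 samples correlated at 0.73 to 0.94 (assays are not independent). The 3 myeloid marker miRNAs, miR-223, miR-142-3p and miR-142-5p, were all undetected in it, whereas in the other 5 samples all 3 were detected, with miR-223 at a Ct of 16.96 to 21.95 and a summed level −3.90 to −1.42 cycles from U6. In this sample, 2 of 5 epithelial marker miRNAs were detected, among them miR-200b at a Ct of 21.98, against 27.09 or later in the other samples, which had 1 to 4 of the 5. The summed epithelial marker level lay −0.69 cycles from U6 in this sample and 5.23 to 7.36 cycles in the others, where a higher value means less. Of 3 lymphocyte marker assays, 2 were detected in it and 3 in every other sample. The summed lymphocyte marker level lay 2.28, −0.92 and 2.20 cycles from U6 in the Ly6Chigh samples and 0.13, −0.82 and 0.98 cycles in the Ly6Clow samples of mice 1, 2 and 3. Detected erythroid markers were 0 of 2 in this sample and 1 of 2 in the others (miR-486 was at 40 throughout), platelet and endothelial markers 0 of 2 against 1 or 2 of 2, and muscle markers 0 of 2 in all samples except 1 of 2 in the Ly6Chigh sample of mouse 3. The part of other cells in the results was not tested. Results are given with and without the Ly6Chigh sample of mouse 1.

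mmu-miR-24 was the most strongly expressed of the 5 miRNAs in all 6 samples. Its Ct was 26.98, 22.98 and 19.98 in the Ly6Chigh samples and 18.99, 18.98 and 20.97 in the Ly6Clow samples of mice 1, 2 and 3. In 5 samples miR-24 ranked from 2 to 4 by lowest Ct among the 112 to 146 miRNA assays detected on the card (Ct under 35), and in the Ly6Chigh sample of mouse 1 it ranked 31 of 109. These ranks set different assays against each other and include differences in assay efficiency.

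mmu-miR-27a had a Ct of 40, 27.96 and 23.93 in the Ly6Chigh samples and of 24.94, 24.94 and 25.95 in the Ly6Clow samples of mice 1, 2 and 3. It was thus undetected in the Ly6Chigh sample of mouse 1 and ranked from 17 to 37 in the others. A Ct under 35 in all samples except this one was found for 46 of the 127 tested card A assays (36.2%), miR-27a included. mmu-miR-27b, its paralog from the other cluster, was detected in all 6 samples, with a Ct of 31.98, 29.97 and 25.96 in the Ly6Chigh samples and of 27.97, 27.98 and 28.98 in the Ly6Clow samples. miR-27b came up later than miR-27a in each of the 5 samples that gave a signal for both.

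Detection of mmu-miR-23b followed the mouse and not the subset. Its Ct was 27.96, 31.99 and 40 in the Ly6Chigh samples and 29.96, 30.99 and 40 in the Ly6Clow samples, so that it was detected in both samples of mice 1 and 2 and in neither sample of mouse 3. This detection pattern was found for 22 of the 201 tested assays (10.9%), but for 2 of the 127 tested assays of card A (1.57%), miR-23b included in both counts. Among the control assays of card A, which these counts leave out, only snoRNA202 showed the same pattern. It had a Ct of 31.92, 22.97 and 40 in the Ly6Chigh samples and of 30.96, 18.99 and 40 in the Ly6Clow samples. mmu-miR-23a, the remaining miRNA of the chromosome 8 cluster, was listed at 40 in all 6 samples, as were 37.9% of the 375 miRNA assays of card A. It was not tested, and the undetected signal sets no level for it. miR-23a was thus without signal in samples in which its cluster mate miR-27a was detected.

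**Figure D1:**
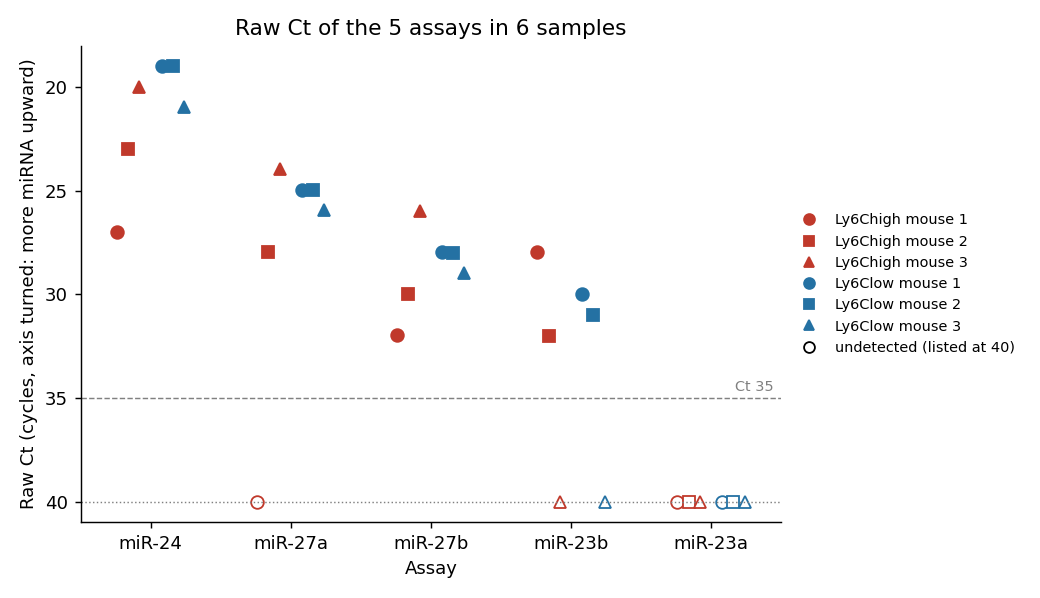
Raw Ct in cycles (turned axis, more miRNA upward) of the 5 assays in the 6 samples, with colours for the subset, symbols for the mouse and open symbols for undetected reactions listed at 40; the dashed line marks a Ct of 35. miR-24 has the lowest Ct in every sample, miR-23b is open in both samples of mouse 3, and miR-23a is open in all 6 samples.

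No member of the clusters passed the test of a difference between the subsets. An assay was tested where its Ct was below 35 in 3 or more samples, counted over both subsets, and 4 of the 201 tested assays were members (miR-23b, miR-24, miR-27a and miR-27b). Of the tested assays, 0 passed an adjusted p of 0.05 in limma (0%), and 2 (0.995%) had an unadjusted p under 0.05. None of the 4 members was among these 2. The Ly6Chigh and Ly6Clow values overlapped for all 4 members, whereas 5.47% of the tested assays had no overlap. With the Ly6Chigh sample of mouse 1 left out, 0 of the 201 assays passed the adjusted threshold, and 4 (1.99%) had an unadjusted p under 0.05, again with none of the members.

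In mice 2 and 3, miR-24 had nearly the same level relative to U6 in both subsets, and in mouse 1 it was lower in the Ly6Chigh sample, which stood apart. U6 itself came up later in the Ly6Chigh sample of mouse 2 (24.66 against 20.76) and earlier in that of mouse 3 (20.77 against 21.92). By raw Ct, miR-24 moved the same way, at 22.98 against 18.98 in mouse 2 and 19.98 against 20.97 in mouse 3. Its expression was −4.32, 1.68 and 0.80 in the Ly6Chigh samples and 0.82, 1.78 and 0.95 in the Ly6Clow samples of mice 1, 2 and 3, with the 2 remaining Ly6Chigh values inside or within 0.1 of the Ly6Clow range. The mean was −0.61 ± 3.24 (SD, n = 3) in Ly6Chigh and 1.18 ± 0.52 (SD, n = 3) in Ly6Clow monocytes, which differ by −1.80 on the log2 scale (standard error 2.04, limma adjusted p = 0.985). The 2-sided exact permutation test gave p = 0.4, where 3 samples against 3 allow 0.1 at the lowest. When the Ly6Chigh sample of mouse 1 was left out, the difference was 0.06 (standard error 0.86). The within-mouse differences were −5.13, −0.10 and −0.15, and the median differences of the tested card A assays in the same mice were −4.17, 0.88 and 0.82. Relative to this median, miR-24 lay at −0.98 in both mice 2 and 3, which is 1 step. In mouse 1 it lay at −0.97, but there the median rests on undetected reactions, since 69 of the 127 assays were listed at 40 in the Ly6Chigh sample. Over the 50 assays with a signal in both samples of mouse 1, an alternative added after the data were seen, the median was 0.83 and miR-24 lay at −5.97, whereas in mice 2 and 3 it stayed at −0.99. A position of more than 0.5 cycles below the median of all tested assays in all 3 mice, undetected reactions included, was found for 14 of the 127 tested card A assays (11%). This count was made after the values of miR-24 were seen.

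miR-27a relative to U6 was −17.34, −3.30 and −3.16 in the Ly6Chigh samples and −5.13, −4.18 and −4.03 in the Ly6Clow samples. The first value is set by the undetected reaction, and the other Ly6Chigh values lay above all 3 Ly6Clow values. Over all samples the log2 difference was −3.48 (standard error 4.09, limma adjusted p = 0.985), and without the Ly6Chigh sample of mouse 1 it turned to 1.22 (standard error 0.84, limma adjusted p = 0.965). The 2-sided exact permutation test over the 6 samples gave p = 1. In mice 2 and 3 the within-mouse differences were 0.88 and 0.87, at the median of the card A assays, from which they differed by −0.0020 and 0.045.

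miR-27b relative to U6 was −9.31, −5.32 and −5.19 in the Ly6Chigh samples and −8.17, −7.22 and −7.06 in the Ly6Clow samples. As for miR-27a, the Ly6Chigh values of mice 2 and 3 lay above all Ly6Clow values, while that of mouse 1 lay below them. The mean was −6.61 ± 2.35 (SD, n = 3) in Ly6Chigh and −7.48 ± 0.60 (SD, n = 3) in Ly6Clow monocytes, with a difference of 0.88 (standard error 1.76, limma adjusted p = 0.985, 2-sided exact permutation p = 0.6). Leaving out the Ly6Chigh sample of mouse 1 gave 2.23 (standard error 0.84, limma adjusted p = 0.965). With Ct values that were not normalized, the difference of miR-27b became −0.99, and the median of all tested assays moved from −0.45 to −2.32. Leaving out U6 shifts all assays of a card together. The position of miR-27b, 1.33 above the median in both settings, could therefore hardly change. This position was −0.05 with undetected reactions missing and 0.37 among assays with a Ct below 35 in all 6 samples.

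Of the members detected in all 6 samples, miR-27b lay further toward Ly6Chigh monocytes than miR-24 in each mouse. Its within-mouse differences were −1.14, 1.90 and 1.87, which is 3.02, 1.02 and 1.05 above the median of the card A assays. The value of mouse 1 turned to −1.98 against this second median, over assays that gave a signal in both samples, and those of mice 2 and 3 were then 1.02 and 1.04. More than 0.5 cycles above the median of all tested assays in all 3 mice was found for 6 of the 127 card A assays (4.72%), a count made after the values of miR-27b were seen. Without the Ly6Chigh sample of mouse 1, all Ly6Chigh values lay above all Ly6Clow values for miR-27a and miR-27b, as for 14.9% of the 201 tested assays and 22.8% of those on card A. When mouse 1 was left out and the mouse entered as a block, an alternative added after the data were seen, miR-27b differed by 1.89 (standard error 0.22) and miR-27a by 0.87 (standard error 0.22), with a limma adjusted p of 0.443 for both. miR-27b had an unadjusted p of 0.0223 in this fit, and 16 of the 201 assays (7.96%) had one under 0.05, 14 of them (6.97%) higher in Ly6Chigh monocytes. These standard errors rest on 2 mice and on values in whole cycles.

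**Figure D2:**
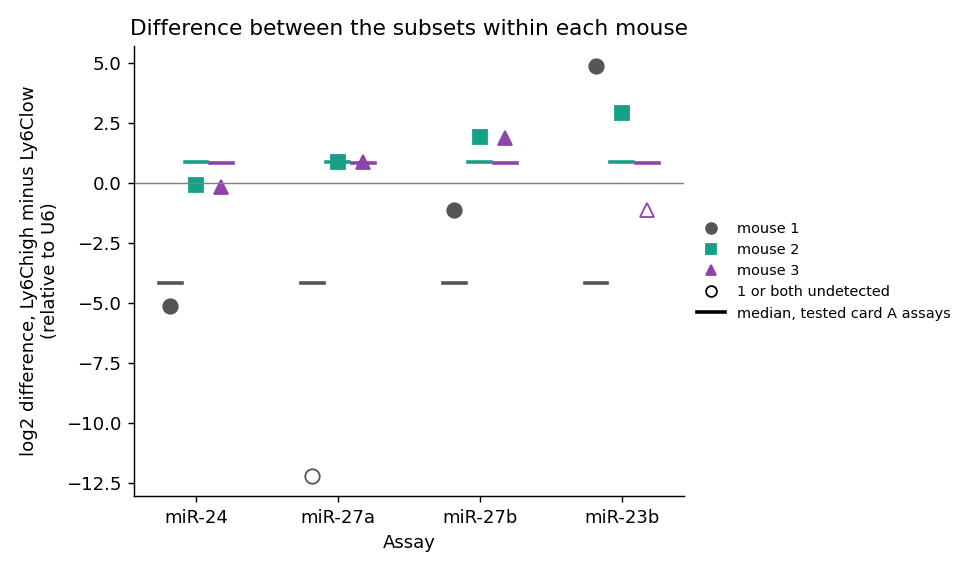
Log2 difference relative to U6, Ly6Chigh minus Ly6Clow, within mice 1, 2 and 3 for the 4 tested assays, with open symbols where 1 or both reactions were undetected and short lines at the median difference of the 127 tested card A assays in the same mouse. In mice 2 and 3 miR-24 lies below its line, miR-27b above it and miR-27a on it; the line of mouse 1 rests on undetected reactions, and miR-27b lies below the median of assays that gave a signal in both samples there.

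For miR-23b, expression relative to U6 was −5.30 and −7.34 in the Ly6Chigh and −10.15 and −10.23 in the Ly6Clow samples of mice 1 and 2. Within mice 1 and 2 these values differ by 4.86 and 2.89, so that expression relative to U6 was greater in the Ly6Chigh sample in both mice with a signal. By raw Ct, the Ly6Chigh reaction came up earlier in mouse 1 (27.96 against 29.96), in the sample that stood apart, and later in mouse 2 (31.99 against 30.99). Relative to the median of assays with a signal in both samples, miR-23b lay at 4.02 in mouse 1 and 2.01 in mouse 2. In mouse 3 both reactions were undetected, and the listed difference of −1.15 is that of U6. The limma difference over the 6 samples was 2.20 (standard error 4.37, adjusted p = 0.985, 2-sided exact permutation p = 0.6). It was −0.46 (standard error 4.73) without the Ly6Chigh sample of mouse 1 and 3.87 (standard error 1.17, limma adjusted p = 0.738) with undetected reactions left out as missing. In this last setting, the unadjusted p was 0.0281, beside 9 of 201 assays under 0.05.

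**Figure D3:**
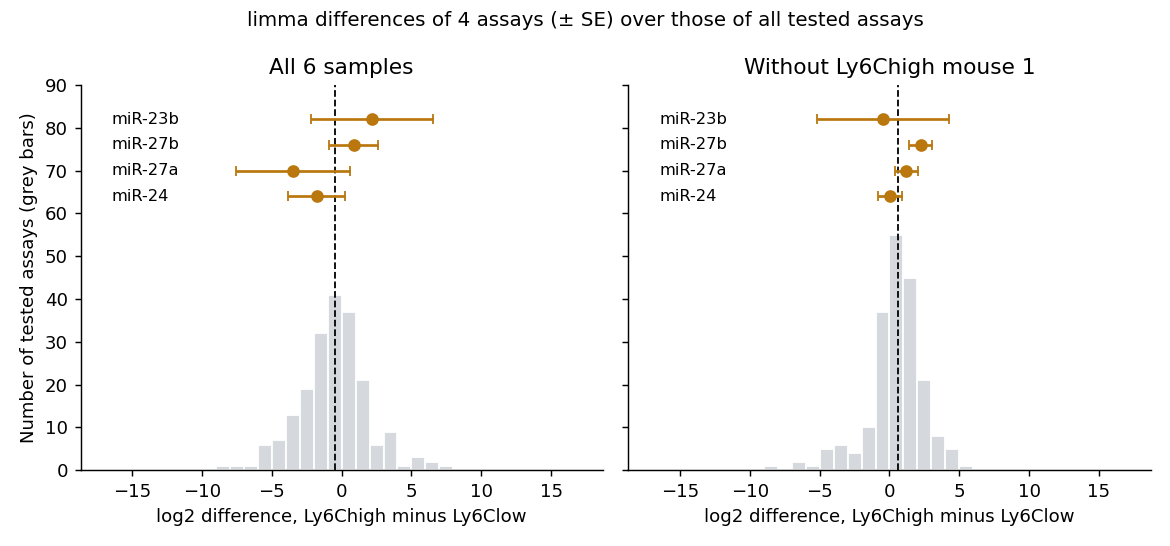
limma log2 differences, Ly6Chigh minus Ly6Clow, of miR-23b, miR-27b, miR-27a and miR-24 (points, with bars for ± 1 standard error) above a histogram of the differences of all 201 tested assays, with all 6 samples (left) and without the Ly6Chigh sample of mouse 1 (right); dashed lines mark the medians of −0.45 and 0.63. The difference of miR-27a moves from −3.48 to 1.22 and that of miR-27b from 0.88 to 2.23.

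The balance between members was read without U6, as the difference in Ct between assays of the same sample and card. The Ct of miR-27b minus that of miR-27a was 2.02 and 2.03 cycles in the Ly6Chigh samples of mice 2 and 3 and 3.03, 3.04 and 3.03 cycles in the Ly6Clow samples of mice 1, 2 and 3. In the Ly6Chigh sample of mouse 1, where miR-27a was undetected, it was −8.02. In mice 2 and 3 the gap was thus 1 step smaller in the Ly6Chigh sample, and in mouse 1 the undetected miR-27a turned the order of the assays. The values of the subsets did not overlap, which counts the value set by this undetected reaction. The 2-sided exact permutation test gave p = 0.1, the smallest possible with 3 samples against 3, and an adjusted p of 0.2 over the pairs that could be measured. This test does not use the pairing by mouse. A 2-sided exact test that turns signs within mice gave p = 0.25, the smallest possible with 3 mice. Of 4 pairs planned, 2 could be measured, since miR-23a gave no signal. Without the Ly6Chigh sample of mouse 1, the subsets differed by −1.01 cycles (2-sided exact permutation p = 0.2, the smallest possible with 2 samples against 3), which is 1 step of the Ct scale. A Ct difference without overlap between the subsets was found for 9.56% of the 8001 pairs of tested card A assays and for 20.5% without this sample.

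miR-24 was also set against both miR-27 paralogs, as a description chosen after the values were seen. miR-27b came up 5.0, 7.0 and 6.0 cycles after miR-24 in the Ly6Chigh samples and 9.0, 9.0 and 8.0 cycles after it in the Ly6Clow samples of mice 1, 2 and 3. All 6 of these values come from detected reactions, including those of the Ly6Chigh sample of mouse 1, which stood apart. The values of the subsets did not overlap, with or without this sample. No overlap was found for 9.56% of the 8001 pairs of tested card A assays, and for 20.5% without this sample. miR-27a came up 4.98 and 3.96 cycles after miR-24 in the Ly6Chigh samples of mice 2 and 3 and 5.95, 5.96 and 4.98 cycles after it in the Ly6Clow samples, which overlap. Within mouse 2 and within mouse 3, both miR-27 paralogs were closer to miR-24 in the Ly6Chigh sample, miR-27a by 1 step and miR-27b by 2 steps.

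**Figure D4:**
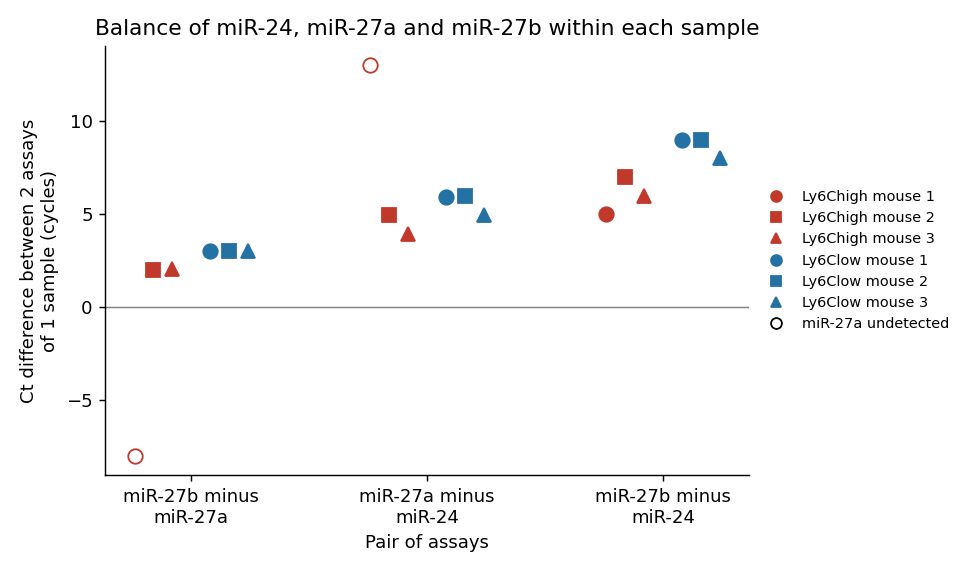
Ct difference in cycles between pairs of assays of the same sample, with colours for the subset, symbols for the mouse and open symbols where miR-27a was undetected. For miR-27b minus miR-27a the Ly6Clow samples sit at 3.03 to 3.04 and the Ly6Chigh samples of mice 2 and 3 at 2.02 and 2.03, and for miR-27b minus miR-24 the Ly6Chigh samples sit at 5.0 to 7.0, below the Ly6Clow samples at 8.0 to 9.0.

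The chromosome 13 cluster mates miR-23b and miR-27b did not keep a fixed balance. The Ct of miR-27b minus that of miR-23b was 4.02 and −2.02 cycles in the Ly6Chigh and −1.98 and −3.01 cycles in the Ly6Clow samples of mice 1 and 2. In mouse 3, with miR-23b undetected, it was −14.04 and −11.02. The subsets overlapped (2-sided exact permutation p = 0.9, adjusted p = 0.9), and the difference between their means was 1.32 cycles with all samples and −2.69 without the Ly6Chigh sample of mouse 1.

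How closely the members moved together was described by centring each assay on its own mean and averaging the absolute difference between assays over the samples. Without the Ly6Chigh sample of mouse 1, over 5 samples, this was 0.49 between miR-27a and miR-27b, 0.63 between miR-24 and miR-27a and 1.04 between miR-24 and miR-27b on the log2 scale. The median over the 8001 pairs of tested card A assays was 1.69. These pairs include assays with undetected reactions, kept at their listed value, whereas miR-24, miR-27a and miR-27b had a signal in all 5 samples. Whether these 3 moved together more closely than other assays with a signal throughout was not tested. miR-23b, with its undetected reactions in mouse 3, differed from the other members by 4.25 to 4.89. With all 6 samples, the values between miR-24, miR-27a and miR-27b were 1.34 to 2.96, beside a median of 3.15 that also includes undetected reactions. Among the other tested assays of card A, those closest to the mean profile of the 4 members were miR-19b, at 0.46, miR-26b, at 0.53, and miR-203, at 0.62. Without the Ly6Chigh sample of mouse 1 they were miR-20b, miR-19b and miR-19a, each at 0.36.

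Of the 6 opposite strands of these hairpins, 5 had an assay, all on card B and some designed for the human or rat sequence, as their names show (hsa-miR-23a#, hsa-miR-27a#, hsa-miR-27b# and rno-miR-24-1#). The assay for miR-27a#, the opposite strand of the miR-27a hairpin, was the only one of the 5 that could be tested. It had a Ct of 29.97, 29.95 and 26.94 in the Ly6Chigh and of 25.19, 25.95 and 28.95 in the Ly6Clow samples of mice 1, 2 and 3. It was detected in the Ly6Chigh sample of mouse 1, on whose card A miR-27a had no signal. Relative to U6 of card B, it differed by −0.38 (standard error 1.50, limma adjusted p = 0.985) and by −0.12 (standard error 1.14) without that sample. miR-24-1#, from the chromosome 13 hairpin, was detected in the Ly6Clow samples of mouse 1, at a Ct of 29.05, and of mouse 2, at 26.93, and miR-24-2#, from the chromosome 8 hairpin, in the Ly6Clow sample of mouse 2, at 32.99. Both were listed at 40 in all 3 Ly6Chigh samples and in the Ly6Clow sample of mouse 3, and miR-24-2# also in that of mouse 1. How many card B assays share these patterns was not counted. miR-23a# was undetected in all 6 samples, and miR-27b# had no Ct under 35. On card B, samples of the same mouse had a Spearman correlation of 0.79 to 0.90 and samples of different mice of −0.20 to 0.35, and more miRNA assays had a Ct under 35 in the Ly6Clow sample of mouse 2 (148) than in any other sample (31 to 104).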

How the data were processed

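TaqMan low-density array values of 6 samples were analysed, with subset and mouse taken from the labels. RNA (10 ng per sample) was reverse transcribed and preamplified with stem-loop primers, and the labels name the primer pool of card A. How Ct values were called and which test the study used are not given in the sources used here. The authors deposited raw Ct and ΔCt, which is on a log2 scale and was checked to be Ct minus a single U6 value per sample and card. The third table, the authors' ratios between the subsets, was not used.

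The 18 control wells were left out, undetected reactions kept their listed value, and the 201 assays below a Ct of 35 in 3 or more samples were tested on −ΔCt with limma 3.58.1 (lmFit, eBayes) in R 4.3.3 without a block, with Benjamini-Hochberg adjustment at 0.05. The limma step was tested on simulated, normally distributed data with known changes. These data held no undetected reactions, whole-cycle steps or mouse effects, so that the test does not cover these features. Single values were compared by 2-sided exact permutation over samples, without the pairing by mouse unless stated. This used scipy 1.17.1, with Python 3.11.15, pandas 2.3.3, numpy 2.4.6 and matplotlib 3.10.9. Per the labels, equal numbers mark the same mouse, and the paired samples' deviations from the subset means correlated at 0.32, 0.62 and 0.72 across the tested assays. For the assays of card A alone, this correlation was −0.09 in mouse 1 and 0.41 in each of mice 2 and 3.

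The members, the marker and opposite-strand lists and the alternatives were chosen with earlier results of these data known. The miRNAs named are the members, these lists and the 3 assays of card A with the closest profile. Alternatives were other normalizations (global mean, median, quantile, none), filters (a Ct below 32 in 3 or more samples, below 35 in all 6, none), a floor of 35 cycles, undetected reactions as missing, the mouse as a block, other variance models and each sample or mouse left out, and 2 added later. Depth is not defined for Ct values, and the number of arrays limits the precision.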

Additional observations from a re-analysis of the deposited data

Results flagged for a closer look

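On card B of the Ly6Clow sample of mouse 2, a well that holds a control assay for a plant miRNA, and that the comparisons do not use, had a Ct of 33.97, whereas this control was at 40 in all other samples and throughout card A. The assays for miR-24-1# and miR-24-2# were on the same card and had a Ct of 26.93 and 32.99 in this sample. The part of this signal in their values was not tested.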

How the results depend on the processing

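The number of assays past the threshold was 0 under all 22 alternatives, with a lowest adjusted p of 0.150. With single samples or mice left out, the log2 difference ranged from −0.46 to 6.50 for miR-23b, −2.94 to 0.056 for miR-24, −5.87 to 1.22 for miR-27a and 0.17 to 2.23 for miR-27b. Relative to the median of the tested assays, these ranges were −1.09 to 6.18, −2.82 to −0.56, −6.19 to 0.59 and −0.15 to 2.37. With undetected reactions missing, the positions relative to the median were 2.95, −2.72, 0.29 and −0.05 in the same order. Among assays with a Ct below 35 in all 6 samples, miR-24 lay at −2.30 and miR-27b at 0.37. The sign of miR-23b turned without the Ly6Chigh sample of mouse 1 (−0.46) or the Ly6Clow sample of mouse 3 (−0.43), and that of miR-24 without the Ly6Chigh sample of mouse 1 (0.056). That of miR-27a turned without this sample (1.22), without mouse 1 (0.87, also with the added block) and with undetected reactions missing (1.22), since the floor value then drops out. After median normalization, in which the card A median of the Ly6Chigh sample of mouse 1 is an undetected reaction at 40, miR-24 differed by 0.66 and miR-27b lay 3.35 above the median of all assays. Without normalization miR-27b differed by −0.99, and without a filter, where most assays are undetected, it lay at −0.99 relative to the median. The Ct difference of miR-27b minus miR-27a between the subsets kept its sign, from −6.04 to −1.01 with samples or mice left out and −2.70 with a floor of 35 cycles. For miR-27b minus miR-23b it went from −2.69 to 6.34, and was negative without the Ly6Chigh sample of mouse 1 (−2.69), the Ly6Clow sample of mouse 3 (−1.52) or mouse 1 (−1.02). With the mouse as a block (the pairing by mouse), no call changed, the lowest adjusted p was 0.949 and the difference of miR-27b was 0.88 (adjusted p = 0.949). The standard errors with this block were 1.71 for miR-23b, 1.65 for miR-24, 3.32 for miR-27a and 1.36 for miR-27b. Without it they were 4.37, 2.04, 4.09 and 1.76. Undetected reactions at 40 and steps of 1 cycle limit all of these values.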
